A study of Mus musculus with 12 samples.

Results

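The cytosolic ribosome reads messenger RNA into protein, and its small and large subunits are built from ribosomal RNA and a set of mostly small, abundant proteins whose genes are expressed in every cell type of the lung. Many of their mRNAs begin with a run of pyrimidines, the terminal oligopyrimidine (TOP) motif, through which growth signals acting on mTOR set their translation. Some of the proteins also take part in the p53 response: free Rpl5 and Rpl11 bind Mdm2, the ligase that degrades p53, and Rps27l, a relative of Rps27, is a known p53 target gene. The genes described here are those of the cytosolic ribosomal proteins in mouse lung after irradiation. They were chosen by symbol, as Rps or Rpl followed by a number and at most a letter and a digit, with Rpsa, Rplp0, Rplp1 and Rplp2, and had to reach 120 counts over all libraries. The counts covered 23238 symbols, of which 84 matched and 82 were kept. Rpl10l, with 7 counts, and Rpl39l, with 30, fell under the minimum. The 82 genes comprise 31 of the small subunit, 43 of the large subunit, the 3 stalk genes and 5 paralogues (Rps27l, Rpl22l1, Rpl7l1, Rps4l and Rpl3l), and all 82 were among the 16484 genes tested.

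RNA was sequenced from 12 mouse lung samples in 4 groups of 3: lung without irradiation (NoIR) and lung taken 8, 11 or 14 days after irradiation (IR_8d, IR_11d and IR_14d). The irradiated tissue was sampled within the irradiated area, per the series description, and no dose, strain, genotype, age or sex is given in these sources. Replicates are numbered, but no label states that each is a different animal. The p-values therefore rest on sample-to-sample spread that could be technical. Libraries held 19624554 to 27765751 counts. Markers of lung epithelium, summed over 8 genes in CPM (counts scaled to a library total of 1e6), were present in every library. The sums were 46426 to 62666 CPM in NoIR lung and 35327 to 38834 CPM at 8 d. They were 24446 to 36225 CPM at 11 d and 22523 to 25908 CPM at 14 d, so every irradiated library lay below every NoIR library. Sftpc and Scgb1a1 made up most of the sum in NoIR lung (means of 21110 and 18862.5 CPM). Of the 8 markers, 2 were called lower at 8 d.

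The mean share of the RNA held by ribosomal protein genes was higher in each irradiated group than in NoIR lung, by a margin close to the spread between libraries at 8 d and 14 d. Together they took 4.92%, 6.32% and 5.55% of counts in the NoIR libraries (5.60% ± 0.701, SD, n = 3). At 8 d the shares were 5.77%, 8.80% and 6.38% (6.98% ± 1.60), at 11 d 7.45%, 7.11% and 7.25% (7.27% ± 0.172), and at 14 d 6.61%, 5.01% and 8.28% (6.63% ± 1.64). All 3 libraries of 11 d lay above all 3 of NoIR, while the 8 d and 14 d libraries overlapped with NoIR and had the larger SDs. With bulk tissue, a change in the kinds of cells present and a change in RNA per cell cannot be told apart.

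**Figure D1:**
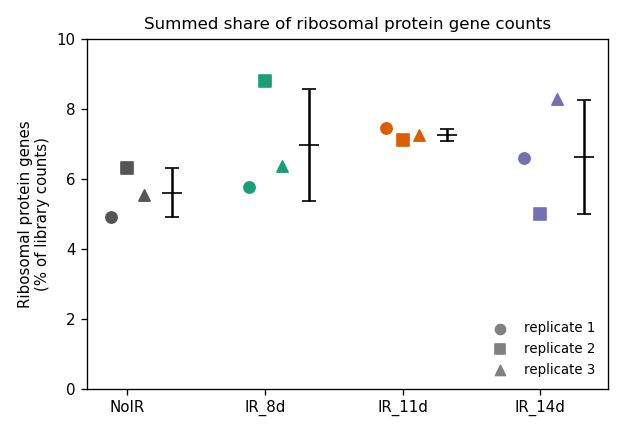
Summed counts of the 82 ribosomal protein genes as a percentage of all counts in each library (vertical axis), by group, with 1 symbol per replicate; black bars give the mean ± SD of 3 libraries. The 11 d libraries lie close together at 7.11% to 7.45%, all above NoIR, whereas 8 d replicate 2 (8.80%) and 14 d replicate 3 (8.28%) stand high and 14 d replicate 2 (5.01%) stands low.

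The sequences that bear on what follows are shown here, beginning with the start of the mRNA, where the TOP motif lies. RefSeq promoter windows (GRCm38.p6) covered 61 of the 82 genes with 73 start sites. The search took a C followed by at least 4 further C or T, read on the sense strand only, within 5 bases of the annotated start. Such a run was found at 31 of the 73 starts (42.5%), compared with 18.4% of 32851 starts of all genes, and at 13 (17.8%) the annotated start base was itself a C followed by at least 4 further C or T, compared with 2.505%. In that narrower form the run may begin upstream of the start, as it does in Rps6 and Rps27 among the sequences shown. In the mitochondrial ribosomal protein genes, whose mRNAs are not known as TOP mRNAs, the wider search found a run at 17 of 75 starts (22.67%) and the narrower one at 0. A match describes these letters and is not evidence of use as a start. The windows below hold 20 bases before and 20 bases from the annotated start, on the gene's strand, with the pyrimidine run in capitals.
Rps6 (chr4:86857348-86857387, minus strand): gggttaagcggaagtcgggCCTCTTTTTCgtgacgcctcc
Rpl13a (chr7:45128726-45128765, minus strand): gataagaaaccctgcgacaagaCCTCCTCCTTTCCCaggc
Rps2 (chr17:24720043-24720082, plus strand): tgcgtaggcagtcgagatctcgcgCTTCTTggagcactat
Rpl12 (chr2:32961692-32961731, plus strand): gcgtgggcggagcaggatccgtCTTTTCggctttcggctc
Rps27 (chr3:90213629-90213668, minus strand): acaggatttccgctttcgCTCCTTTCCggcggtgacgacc
Rps27l (chr9:66946066-66946105, plus strand): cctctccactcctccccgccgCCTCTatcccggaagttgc
Rpsa (chr9:120127746-120127785, plus strand): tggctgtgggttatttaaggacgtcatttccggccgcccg
Rps6 carries a long run across its annotated start and Rpl13a a long run that begins 2 bases after it. Rps27l carries a run of 5, and Rpsa none in this window.

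The other sequences are the coding sequences of Rps27l and Rps27, from GENCODE M21 (GRCm38), shown because the former was the most changed gene of the family and the latter its closest relative. Each is 252 bases long, and 192 bases (76.2%) are identical. The differing bases are in capitals and fall throughout, so that the longest identical stretch is 11 bases and longer reads from these coding sequences differ.
Rps27l (chr9, plus strand): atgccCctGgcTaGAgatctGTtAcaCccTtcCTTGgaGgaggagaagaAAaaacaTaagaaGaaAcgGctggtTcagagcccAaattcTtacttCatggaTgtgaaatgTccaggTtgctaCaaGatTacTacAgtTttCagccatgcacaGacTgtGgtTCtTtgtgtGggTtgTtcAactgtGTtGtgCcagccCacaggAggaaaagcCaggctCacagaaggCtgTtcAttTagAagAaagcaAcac
Rps27 (chr3, minus strand): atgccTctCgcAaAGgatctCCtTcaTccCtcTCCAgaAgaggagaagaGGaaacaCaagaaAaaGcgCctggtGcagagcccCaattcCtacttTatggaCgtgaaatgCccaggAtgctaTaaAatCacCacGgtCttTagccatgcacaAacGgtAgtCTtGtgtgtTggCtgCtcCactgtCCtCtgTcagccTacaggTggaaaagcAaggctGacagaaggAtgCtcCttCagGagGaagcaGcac

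Rps27l was higher at every time after irradiation. The gene lies at chr9:66946086-66949516 (mm10, plus strand) and its product, a small-subunit protein close to Rps27, is known for its induction by p53. In NoIR lung Rps27l stood at 36.7, 46.9 and 45.4 CPM. At 8 d it stood at 70.8, 177 and 117 CPM, at 11 d at 135, 127 and 113 CPM, and at 14 d at 82.1, 70.8 and 124 CPM. Every irradiated library was above every NoIR library. The log2 change was 1.50 at 8 d (SE 0.27, adjusted p = 0.00121, edgeR quasi-likelihood test with Benjamini-Hochberg adjustment), 1.54 at 11 d (adjusted p = 0.000559) and 1.10 at 14 d (adjusted p = 0.00475). The call was kept at each time under all 19 alternatives run. The log2 change ranged over 1.13 to 1.78 for 8 d, 1.13 to 1.61 for 11 d, and 0.83 to 1.26 for 14 d. Of the p53 genes measured beside it, Cdkn1a, an inhibitor of cyclin-dependent kinases, changed by 3.53, 3.07 and 2.66 on the log2 scale at 8, 11 and 14 d, and Mdm2 by 1.46, 1.19 and 1.07, all of them called. Trp53 itself, which encodes p53, changed by 0.73, 0.55 and 0.47, also called at each time. Mdm4, a relative of Mdm2 that restrains p53, stood at 0.13, -0.16 and 0.29 and was not called.

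Rps27 did not pass the test at any time. Its levels were 144, 198 and 171 CPM in NoIR lung, 111, 258 and 169 at 8 d, 218, 195 and 184 at 11 d, and 167, 131 and 249 at 14 d. The 8 d and 14 d libraries lay on both sides of NoIR, and the log2 changes were 0.07, 0.22 and 0.09 (adjusted p = 0.88, 0.551 and 0.817). The row of Rps27 has to be read with that of Rps27rt, a near-identical retrotransposed copy listed as protein-coding. Rps27rt held 200790 counts over the 12 libraries and Rps27 held 52082, and 98.7% of the 50-base words of the Rps27 mRNA also occur in transcripts of other genes, so the division of reads between both rows is uncertain. Rps27rt changed by 0.01, 0.19 and 0.05 on the log2 scale, with none of the times called. Set against the sum of both rows, Rps27l gave 5.19, 4.71 and 5.45 counts per 100 counts in NoIR lung. It gave 13.4, 14.3 and 14.6 at 8 d, 12.7, 13.3 and 12.7 at 11 d, and 10.1, 11.5 and 10.2 at 14 d. This ratio left no overlap between irradiated and NoIR libraries, and its spread within a group was narrower than that of the CPM values. The 14 d libraries also lay below all 8 d libraries in this ratio, a comparison of 3 against 3 in which a two-sided exact permutation test cannot go below p = 0.1.

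**Figure D2:**
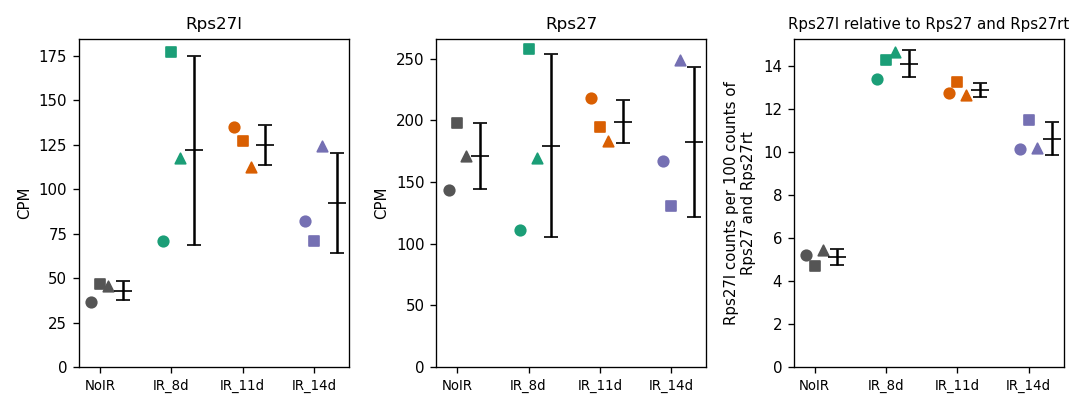
Rps27l and Rps27 in CPM (left and middle), and Rps27l counts per 100 counts of Rps27 and its retrotransposed copy Rps27rt (right), for each library, with 1 symbol per replicate and black bars for the mean ± SD of 3 libraries; vertical axes start at 0. In the ratio the NoIR libraries lie at 4.71 to 5.45 and the irradiated libraries at 10.1 to 14.6, whereas 8 d replicates 1 and 2 differ widely in the CPM panels.

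The other 4 paralogues gave mixed values, and of these Rpl7l1 passed the test. Rpl7l1, a relative of Rpl7 (chr17:46773907-46782672, minus strand), stood at 94.0, 99.2 and 96.2 CPM in NoIR lung and rose to 141, 133 and 127 CPM at 11 d, a log2 change of 0.47 (SE 0.13, adjusted p = 0.0105). At 14 d it was 119, 110 and 138 CPM (log2 change 0.34, adjusted p = 0.0475), and at 8 d 108, 129 and 96.0 CPM, which overlapped with NoIR. Its 11 d call was kept under 18 of 19 alternatives and its 14 d call under 10. Rpl22l1, a relative of Rpl22, had log2 changes of 0.44, 0.51 and 0.14, none called, and Rpl3l, the relative of Rpl3 known from striated muscle, was at or below 1.17 CPM in every library. Rps4l, annotated as a transcribed processed pseudogene, lay at 7.35, 11.9 and 13.1 CPM in NoIR lung, at 15.1, 15.6 and 15.8 CPM at 8 d, at 11.6, 6.56 and 11.7 CPM at 11 d and at 9.85, 7.58 and 11.4 CPM at 14 d. All 8 d libraries were above all others, but no contrast passed the test (8 d against NoIR, log2 change 0.53, adjusted p = 0.133; 14 d against 8 d, -0.69, adjusted p = 0.0689).

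At 8 d the gene-wise test called few members of the family. The test called 3 genes higher, Rps27l, Rpl19 and Rps2, and 0 were lower, which is 3.66% of the 82 beside 13.0% of all genes tested called higher and 10.6% called lower. Rpl19, of the large subunit (chr11:98026710-98030492, plus strand), stood at 1049, 1266 and 1218 CPM in NoIR lung and at 1919, 2026 and 1469 CPM at 8 d (log2 change 0.62, SE 0.19, adjusted p = 0.0335). Rps2, of the small subunit near the mRNA entry (chr17:24718116-24721929, plus strand), stood at 302, 389 and 330 CPM and at 441, 583 and 433 CPM (log2 change 0.51, adjusted p = 0.0459). For both genes all 8 d libraries were above all NoIR libraries, and each call was lost when single libraries were left out. The median log2 change of the 82 genes was 0.26, or 1.19-fold, beside 0.01 over all genes, and 78 of 82 values were above 0, beside 51.2% of all genes. The median SE of these log2 changes was 0.22, close to the median change itself, so few calls do not show that the family was unchanged. The groups did not overlap for 11 genes, all higher at 8 d, beside 19.8% of all genes. Leaving out NoIR replicate 1, NoIR replicate 3 or 8 d replicate 2 left 1 called gene (1.22% of the members), beside 9.05%, 11.2% and 11.2% of all genes called higher in those fits, and without 8 d replicate 2 the median was 0.03.

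At 11 d the values of the family lay above those of NoIR lung most evenly. In all, 17 genes passed the test, all higher (20.7% of the members), beside 19.4% of all genes called higher and 17.8% called lower, so the share called was close to that of all genes. They included Rps27l, Rpsa, Rps2, Rps3 and Rps18 of the small subunit, Rpl7a, Rpl11, Rpl12, Rpl13a, Rpl18, Rpl19, Rpl39 and Rpl41 of the large subunit, the stalk genes Rplp0 and Rplp2, and Rpl7l1. The median log2 change was 0.40 (1.32-fold) beside -0.01 over all genes, 81 of 82 values were above 0 beside 49.2% of all genes, and 61 of the 82 genes had all 11 d libraries above all NoIR libraries, beside 28.2% of all genes. The middle 50% of members lay between 0.28 and 0.52, whereas that of all genes lay between -0.40 and 0.39. Of the 82 members, 65 did not pass the test. The members moved together from library to library, as described below. At each time, counts of values above 0 or of groups without overlap are therefore not 82 separate observations.

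Among the called genes at 11 d Rpsa, the laminin receptor and small-subunit protein (chr9:120127689-120132369, plus strand), stood at 1449, 1963 and 1659 CPM in NoIR lung and at 2970, 2813 and 2963 CPM at 11 d (log2 change 0.79, SE 0.22, adjusted p = 0.0114). Rps2 reached 620, 542 and 592 CPM (log2 change 0.78, adjusted p = 0.00299) and kept its call under 18 of 19 alternatives. Rpl12, of the stalk base (chr2:32961559-32965345, plus strand), went from 514, 688 and 594 CPM to 1054, 989 and 959 CPM (log2 change 0.74, adjusted p = 0.021). Rpl41, the smallest protein of the large subunit (chr10:128548114-128549305, minus strand), went from 591, 908 and 804 CPM to 1372, 1195 and 1169 CPM (log2 change 0.70, adjusted p = 0.0361). In each of these 4 genes the 11 d libraries lay above all NoIR libraries. Rplp0, the stalk protein often used as a reference gene, rose with a log2 change of 0.55 (adjusted p = 0.0258), and Rpl13a, another common reference gene, with 0.67 (adjusted p = 0.0367), calls kept under 14 and 11 of 19 alternatives. Rpl11, which binds Mdm2, rose by 0.54 (adjusted p = 0.0482), a call kept under 7 of 19 alternatives, with log2 changes between 0.13 and 0.62. Its partner Rpl5 stood at 0.39 (adjusted p = 0.147) and Rpl23, a further Mdm2-binding protein, at 0.41 (adjusted p = 0.164), and differences between these genes were not tested. Rps6, the substrate of S6 kinase, stood at 0.38 (adjusted p = 0.177), Rps19, the gene most often mutated in human Diamond-Blackfan anaemia, at 0.45 (adjusted p = 0.134), and Rps27a, which encodes a ubiquitin fusion, at 0.53 (adjusted p = 0.0986).

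The count at 11 d depended on single libraries and on the fit. It fell to 3 without NoIR replicate 1 (beside 15.3% of all genes called higher in that fit), to 5 without NoIR replicate 3 (beside 17.1%) or 11 d replicate 1 (beside 14.7%), to 7 without 11 d replicate 3 (beside 16.9%) and to 8 without 11 d replicate 2 (beside 17.4%). These counts are 3.66% to 9.76% of the members, below the share of all genes in the same fits. Without NoIR replicate 2 the count was 14, and the share of all genes in that fit is not given here. When only NoIR and 11 d entered the fit 51 members were called (62.2%), beside 22.6% of all genes.

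At 14 d 5 genes were higher (6.10% of the members), among them Rps27l, Rps2, Rpl19 and Rpl7l1, and 0 were lower, beside 20.0% of all genes called higher and 18.9% called lower. Rps2 was at 531, 407 and 633 CPM (log2 change 0.62, adjusted p = 0.0109) and Rpl19 at 1855, 1172 and 2021 CPM (log2 change 0.51, adjusted p = 0.0491), the latter overlapping with NoIR. The median log2 change was 0.22 (1.17-fold) beside 0.01 over all genes, 77 of 82 values were above 0, beside 50.4% of all genes, and 5 genes had groups that did not overlap, beside 25.8%. The count was 25 (30.5%) without 14 d replicate 2, beside 18.8% of all genes called higher in that fit. It was 1 without 14 d replicate 3 (beside 17.8%) or NoIR replicate 1 (beside 17.0%), and 3 without 14 d replicate 1 (beside 16.4%) or NoIR replicate 3 (beside 18.3%). The median was 0.41 without 14 d replicate 2 and 0.03 without replicate 3.

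**Figure D3:**
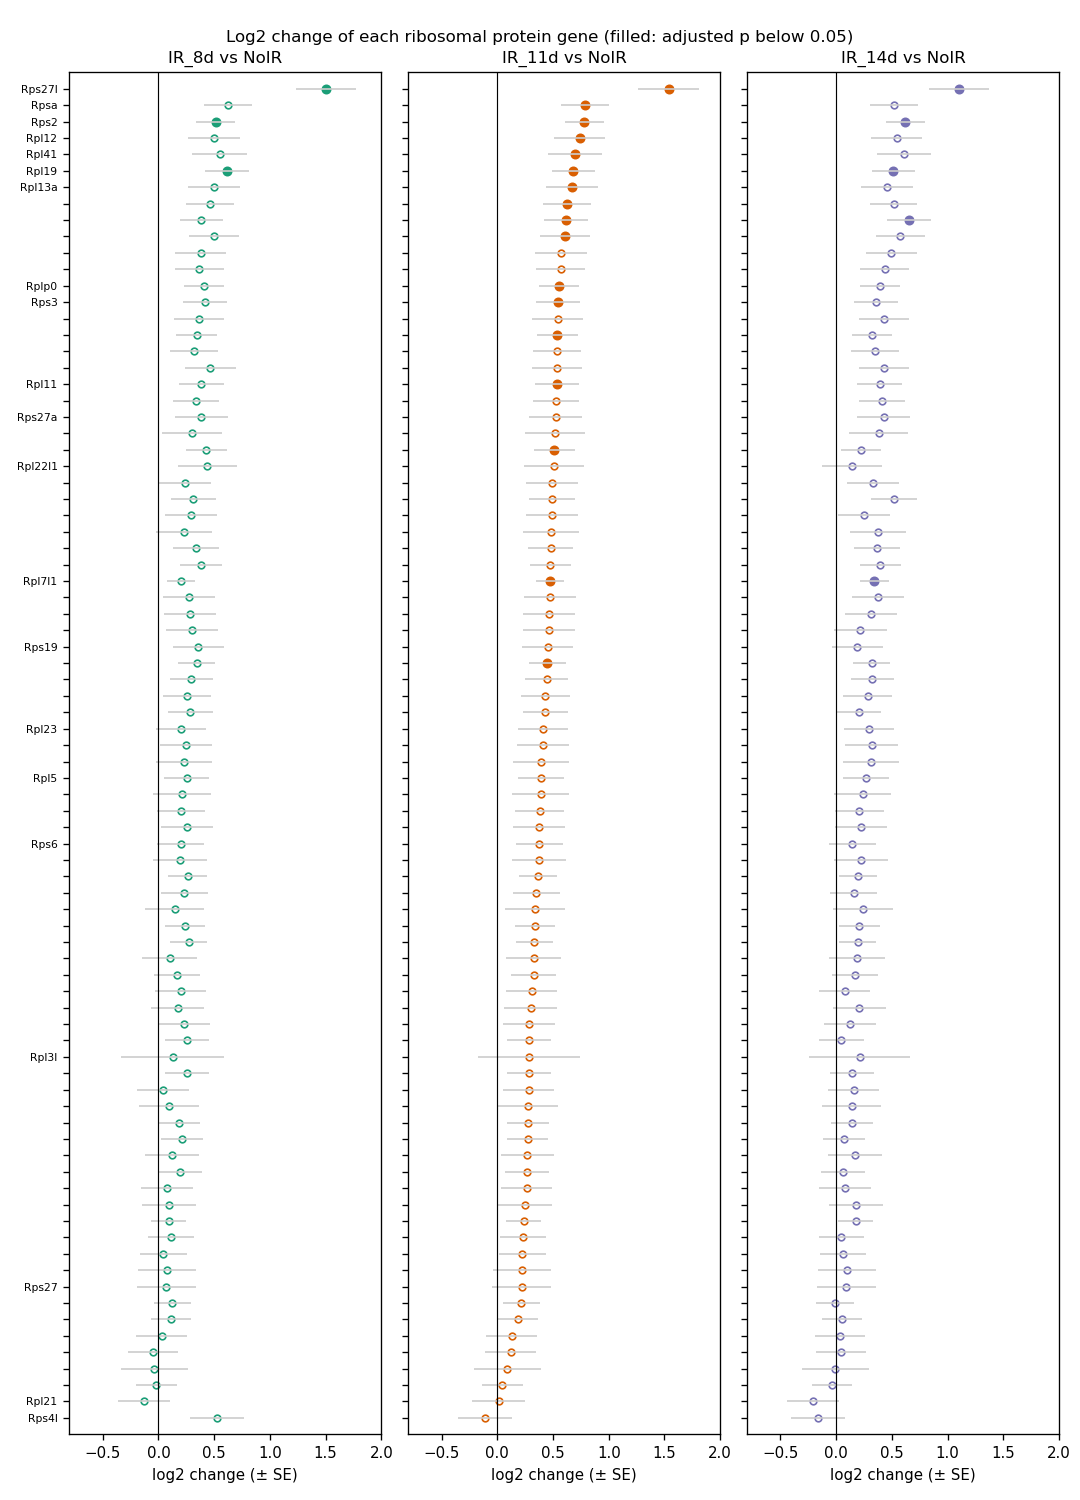
Log2 change of each of the 82 ribosomal protein genes against NoIR (horizontal axis, ± SE) at 8, 11 and 14 d, ordered by the change at 11 d, with names for some of the genes described in the text; filled symbols have an adjusted p below 0.05 (edgeR), which 3, 17 and 5 genes have. Rps27l stands apart at the top at all 3 times, most other genes lie between 0 and 0.8, and Rps4l is among the higher genes at 8 d and the lowest at 11 d.

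Between the times after irradiation no ribosomal protein gene passed the edgeR test. From 8 d to 11 d 0 genes were higher and 0 lower, beside 1.75% and 0.394% of all genes, with 1 at an unadjusted p below 0.05 (Rps4l) and a median log2 change of 0.15. From 11 d to 14 d the counts were again 0 and 0, beside 0.813% and 0.983% of all genes, with 0 at an unadjusted p below 0.05 and a median of -0.14. From 8 d to 14 d they were 0 and 0, beside 8.10% and 7.29% of all genes, with 1 at an unadjusted p below 0.05 (Rps4l) and a median of 0.02. DESeq2 called Rps4l lower from 8 d to 14 d (log2 change -0.68, adjusted p = 0.0434) and 0 genes in the other directions and contrasts between times. Tested over the 4 groups at once, 5 genes differed: Rps27l, Rps2, Rpl19, Rpl7l1 and Rpsa. This compares with 39.2% of all genes.

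The members moved together from library to library, including between replicates of the same group. Each library's deviation from its group was taken as the median over the 82 genes of log2 CPM minus the group mean. This was -0.21, 0.21 and -0.01 in the NoIR libraries, -0.30, 0.43 and -0.12 at 8 d, 0.05, -0.03 and -0.02 at 11 d, and 0.02, -0.42 and 0.40 at 14 d. In NoIR replicates 1 and 2, 8 d replicate 2 and 14 d replicates 2 and 3 all 82 genes lay on the same side of their group mean. Over the 12 libraries the median correlation between the deviations of any pair of members was 0.94, with the middle 50% between 0.88 and 0.97, as a description of points that share library, depth and scaling. Rps4l followed the others least, with a median correlation of 0.48, and Rpl19 and Rps3 next, at 0.76 and 0.77.

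Gene length moved with these deviations. The shortest principal mRNA of the members had a median length of 740 bases (271 to 3706), beside 2757 bases for protein-coding genes tested, and 41 members had one of up to 750 bases. Other protein-coding genes with an mRNA of up to 500 bases, 55 genes above a log2 CPM of 4, deviated by -0.16, 0.17 and -0.01 in the NoIR libraries, by -0.40, 0.47 and -0.05 at 8 d, by 0.07, -0.01 and -0.06 at 11 d and by -0.10, -0.26 and 0.36 at 14 d. Genes with mRNAs over 5000 bases, 1647 of them, deviated in the opposite sense in the libraries that stood apart, with -0.24 in 8 d replicate 2 and -0.16 in 14 d replicate 3. Against the NoIR mean, 252 other genes with mRNAs of up to 750 bases stood at 0.37, 0.31 and 0.25 in the 11 d libraries, where the ribosomal protein genes stood at 0.49, 0.38 and 0.39. Short mRNAs that do not encode ribosomal proteins were thus also high in the 11 d libraries. At 8 d these short genes stood at -0.23, 0.55 and 0.12, where the ribosomal protein genes stood at -0.05, 0.64 and 0.12. At 14 d the short genes stood at -0.008, -0.12 and 0.36, and the ribosomal protein genes at 0.23, -0.21 and 0.62.

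**Figure D4:**
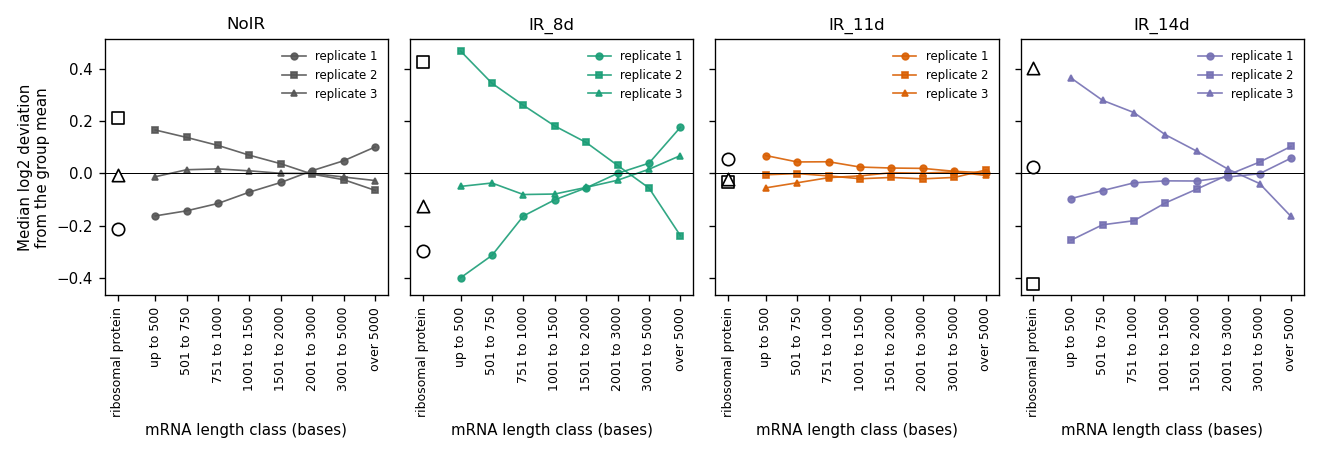
Median log2 deviation of each library from its group mean (vertical axis) for other protein-coding genes in 8 classes of mRNA length (horizontal axis, filled symbols and lines) and for the ribosomal protein genes (open symbols at the left), in the 4 groups, with 1 symbol per replicate. In 8 d replicate 2 and 14 d replicate 3 the values fall steadily from short to long genes, and in 8 d replicate 1 and 14 d replicate 2 they climb, with the ribosomal protein genes beside the short classes.

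A fit that removed each library's trend with length, estimated on genes other than the ribosomal protein genes and chosen after the data were seen, narrowed the larger deviations of the members. In 8 d replicate 2 the deviation went from 0.43 to 0.18, in 14 d replicate 3 from 0.40 to 0.26 and in 14 d replicate 2 from -0.42 to -0.32. Small deviations widened in 14 d replicate 1 (0.02 to 0.06), NoIR replicate 3 (-0.01 to -0.03) and 11 d replicate 2 (-0.033 to -0.040). The median log2 change of the members became 0.13 at 8 d, 0.24 at 11 d and 0.19 at 14 d, with 64, 74 and 69 of 82 values above 0. In this fit 4 genes were called higher at 8 d (beside 14.0% of all genes), 13 at 11 d (beside 21.0%) and 12 at 14 d (beside 22.0%), and 0 were called lower, beside 11.2%, 17.8% and 19.6%. Rps27l, Rps2, Rpl19 and Rpsa were called higher at all 3 times, with log2 changes at 11 d of 1.32, 0.62, 0.49 and 0.71. Within the family length showed no relation to the change: over the 77 members without paralogues the rank correlation of mRNA length with log2 change was 0.11, 0.03 and 0.04 at 8, 11 and 14 d, given as a description across genes that share all libraries.

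**Figure D5:**
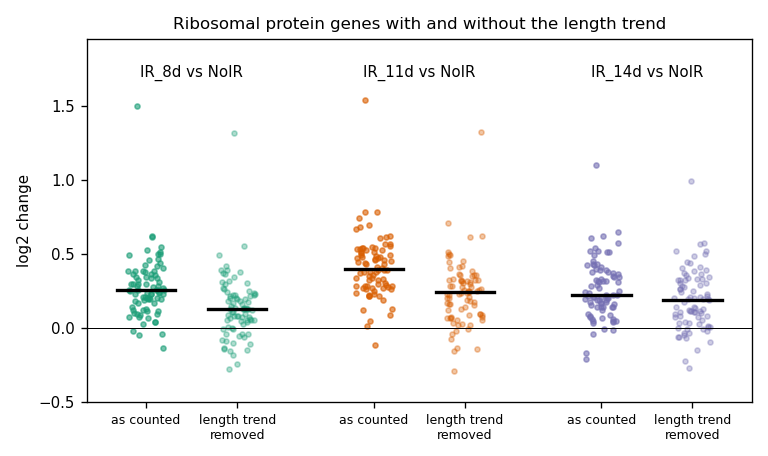
Log2 change against NoIR (vertical axis) of each ribosomal protein gene as counted and after the length trend of other genes was removed, at 8, 11 and 14 d; points are genes, spread sideways at random, and black lines are medians. The medians go from 0.26 to 0.13, from 0.40 to 0.24 and from 0.22 to 0.19, and Rps27l remains the highest point in all 6 columns.

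Scaled to the family itself, so that its middle was set near 0 in each library, Rps27l alone was higher, at all 3 times, with log2 changes of 1.21, 1.13 and 0.84 (adjusted p = 0.00232, 0.00183 and 0.00976). This scaling too was chosen after the data were seen, and under it 4.33%, 6.71% and 9.54% of all genes were called higher. Rpl21 was called lower at 14 d, with a log2 change of -0.47 (adjusted p = 0.0296), beside 12.3% of all genes. As counted, Rpl21 stood at 2026, 2617 and 2295 CPM in NoIR lung and at 1832, 1520 and 2651 CPM at 14 d, which overlap (log2 change -0.21, adjusted p = 0.523). Relative to the rest of the family, then, Rps27l and no other member was called at 8 d and 11 d.

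Pseudogenes and retrotransposed copies limit how well single members can be counted. For 81 members with a protein-coding transcript to search, a median of 60% of the 50-base words of the mRNA (0% to 98.7%) also occurred in transcripts of other genes, and the share was at least 50% in 52 of them. Rpl8, with 7.86% shared, and Rps3, with 2.96%, were nearly free of such copies, and Rps27l shared 22.4% and had no pseudogene copy at 95% identity over 80% of its length. Members had a median of 5 annotated pseudogene copies by that measure, from 0 in 6 members to 56 for Rpl21, and Rps2 had 26. Separate rows existed for 9 named copies, which together held 1.69% as many counts as the members. Beside Rps27rt the largest was Rpl34-ps1, with 69374 counts and log2 changes of 0.35, 0.53 and 0.41, none called, close to 0.32, 0.54 and 0.35 for Rpl34. Of the 9 copies, Rplp2-ps1 was called, at 11 d (log2 change 0.54, adjusted p = 0.0408) and at 14 d (0.58, adjusted p = 0.027), while Rplp2 was called at 11 d (0.54, adjusted p = 0.0317) and stood at 0.32 at 14 d (adjusted p = 0.186). Across the 77 members the share of common words showed no relation to the change (rank correlation -0.01, 0.01 and 0.01). Of the 77, 30 carry snoRNA genes within them, and their median log2 changes, 0.26, 0.39 and 0.25, were near those of the 47 without, 0.24, 0.41 and 0.22.

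Small and large subunit genes had close medians. The median log2 change was 0.24, 0.39 and 0.23 in the 31 small-subunit genes and 0.25, 0.41 and 0.22 in the 43 large-subunit genes at 8, 11 and 14 d. Per length, Rpl26 had the highest level in NoIR lung, at 4500 CPM per kilobase of mRNA, and the 5 paralogues the lowest, from 0.482 for Rpl3l to 86.1 for Rps27l. Among subunit genes whose symbols do not follow the naming rule, Gnb2l1, which encodes the scaffold Rack1, and Rpl36al rose at 11 d (log2 change 0.52 and 0.56, adjusted p = 0.0457 and 0.0441), while Fau, which encodes a ubiquitin-like fusion, stood at 0.42 and was not called.

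Lists of related genes are read against the 13.0%, 19.4% and 20.0% of all genes called higher at 8, 11 and 14 d. Of 37 genes of ribosome assembly and rRNA processing 14, 20 and 12 were higher (37.8%, 54.1% and 32.4%) and 0, 1 and 1 lower at 8, 11 and 14 d, with median log2 changes of 0.29, 0.48 and 0.23. Rrp12, known from yeast for its part in export of the subunits, rose from 9.61 ± 0.772 to 17.0 ± 0.749 CPM at 8 d (SD, n = 3; log2 change 0.83, adjusted p = 0.000812 by edgeR), and Wdr12, which acts in large-subunit maturation, changed by 0.92 at 11 d (adjusted p = 0.000751). Of 77 mitochondrial ribosomal protein genes 12, 33 and 11 were higher (15.6%, 42.9% and 14.3%) and 0, 0 and 1 lower. The share was near that of all genes at 8 d, above it at 11 d and below it at 14 d, with medians of 0.30, 0.39 and 0.22, close to those of the cytosolic genes. Mrps11, of the small mitochondrial subunit, was called at all 3 times (log2 changes 0.61, 0.75 and 0.59). Of 22 translation factors and other TOP mRNAs 0, 5 and 5 were higher (0%, 22.7% and 22.7%, the latter near the share of all genes) and 0 lower, with medians of 0.12, 0.22 and 0.20. Eif4a1, the helicase of cap-dependent initiation, changed by 0.41, 0.80 and 0.57 (adjusted p = 0.0887, 0.00184 and 0.0137), and Pabpc1, the poly(A)-binding protein, by 0.08, 0.19 and 0.48, the last called (adjusted p = 0.0118). Myc, the transcription factor that drives ribosome production, was higher at each time, with log2 changes of 0.90, 1.21 and 1.22. It was taken from a list of 20 genes of mTOR and Myc growth control. Of that list 15%, 15% and 20% were higher, near the shares of all genes, and 1, 3 and 1 genes lower. A link between Myc and the ribosomal protein genes was not tested.

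Summed markers of several cell types also differed between the groups. Marker counts are read against the 13.0%, 19.4% and 20.0% of all genes called higher at 8, 11 and 14 d. The shares of all genes called lower were 10.6%, 17.8% and 18.9%. Markers of interstitial macrophages and monocytes, 7 genes, summed to between 149 and 163 CPM in NoIR lung. The sums lay between 325 and 420 CPM at 8 d, between 607 and 1156 at 11 d and between 1222 and 1708 at 14 d, with 5, 7 and 7 of 7 higher. In replicates 1, 2 and 3 at 8 d the sums were 420, 381 and 325 CPM, and the ribosomal protein shares 5.77%, 8.80% and 6.38%. At 11 d the sums were 1156, 607 and 721 CPM, with shares of 7.45%, 7.11% and 7.25%. At 14 d the sums were 1708, 1222 and 1667 CPM, with shares of 6.61%, 5.01% and 8.28%. A relation between these sums and the shares was not tested. Of 8 T cell markers listed, 6 were tested and summed to 66.1 to 70.2, 124 to 156, 171 to 205 and 127 to 203 CPM, with 5, 6 and 5 higher. The 6 markers of dividing cells summed to 70.0 to 91.5, 143 to 179, 199 to 340 and 252 to 285 CPM, with 5, 6 and 6 higher. The 6 endothelial markers summed to 3402 to 3692, 2131 to 2299, 1291 to 1856 and 802 to 1040 CPM, with 3, 6 and 6 lower. Of 6 alveolar macrophage markers, 5, 5 and 4 were lower and 1, 1 and 0 higher. Of 5 natural killer cell markers, 5, 5 and 3 were higher and 0 lower. Of 6 B cell markers, 5, 1 and 1 were higher and 0 lower. Not every cell type listed is given here. Of the 8 lung epithelium markers, 2, 4 and 6 were lower at 8, 11 and 14 d, and 0, 1 and 0 higher. None of the tested markers was at 0 in any library. The ribosomal RNA precursor Rn45s took 1.71% to 2.91% of counts in NoIR lung and 2.12% to 6.27% after irradiation. The part of these differences in the levels of the ribosomal protein genes was not tested.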

How the data were processed

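Counts per gene symbol were deposited by the authors for 12 samples, 1 table each of 23282 lines. TopHat and the build mm10 are named in the submitters' processing notes. How reads were counted, on which annotation and strand, and what was done with reads that align in several places is not given in the sources used here. Trizol extraction and a directional NEBNext library kit are named in the labels' protocols. Lines with the same symbol were summed to 23238 symbols. Coordinates and mRNA lengths are from GENCODE M21, which held 22205 of them.

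All 12 libraries were fitted with edgeR 4.0.16 in R 4.3.3 (quasi-likelihood F test, TMM scaling, default expression filter, no covariates). The filter kept 16484 genes, and calls use p-values adjusted over all of them by Benjamini-Hochberg, at 0.05. Standard errors were obtained from the log2 change and F. TMM-scaled library sizes entered the CPM. Depth was 19624554 to 27765751 counts per library. Repeat content was measured by 50-base words and by alignment to 13510 pseudogene transcripts. The length trend was a lowess curve with a span of 0.3. Alternatives used other scalings and filters, DESeq2 1.42.0, limma 3.58.1 (voom), a replicate block and each library left out. Named were the 5 highest and 5 lowest called members per comparison with NoIR (3 between times), the paralogues with their partners, and a fixed set of well-known members; of the other lists, some of the 4 genes with the lowest joint p. Rpl39, Rpl18, Rps18, Rpl7a, Rpl8, Rpl21, Rpl26 and Rpl34, and the copies, were named after their values were seen. The members, gene lists and tests were chosen with earlier results of these data known. The fit was checked on simulated counts for 14 d against NoIR. It recovered 22.4% of 1.5-fold, 65.7% of 2-fold and 98.5% of 4-fold changes, with 5 false calls among 129. Changes as small as the family medians were not simulated. Some named results are not reported here.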

Additional observations from a re-analysis of the deposited data

How the results depend on the processing

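Rps27l kept its call at each time under every alternative run, including each library left out. The other counts moved. In the main fit 13.0%, 19.4% and 20.0% of all genes were called higher at 8, 11 and 14 d, and 39.2% jointly. The shares of all genes in the block, DESeq2, limma-voom and library-size fits are not given here. Counts from those fits therefore describe the fits and are no result about the family. With a replicate block 1, 11 and 3 genes were higher at 8, 11 and 14 d and 2 were called jointly. Deviations of same-numbered libraries from their group means had correlations of -0.33 to 0.27. These values cannot decide whether the numbers pair the samples, and no label states it. DESeq2 called 11 genes higher at 14 d, 1 lower from 8 d to 14 d (Rps4l, as in the other alternatives that gave 1) and 8 jointly, and limma-voom 3 higher at 14 d. A fit of only the groups compared gave 51 higher at 11 d (beside 22.6% of all genes) and 1 lower from 8 d to 14 d. Library size alone gave 1 lower from 8 d to 14 d and a median of 0.060 from 8 d to 11 d. Removal of the length trend estimated on all genes, or on other genes, gave 12 higher at 14 d under both and medians of 0.23 and 0.24 at 11 d. With the trend of other genes removed, 22.0% of all genes were called higher at 14 d. Scaling to the family gave 1 higher at each time, 1 lower at 14 d, 1 jointly, and medians of -0.0021 at 11 d and 0.011 from 8 d to 11 d. Without paralogues 3 genes were higher at 14 d and 3 jointly. Without Rn45s and haemoglobin the shares at 11 d were 7.77%, 7.66% and 7.63%. Directions that reversed were those of genes not called: under family scaling Rpl3l (-0.16, -0.11 and -0.047 at 8, 11 and 14 d), Rpl7l1 at 8 d (-0.035) and Rpl22l1 at 14 d (-0.10), the cause being the scaling itself. With each library left out the number higher ranged over 1 to 4 (8 d), 3 to 14 (11 d) and 1 to 25 (14 d), and over 1 to 12 for the joint test. In those of these fits whose shares are set out above, 9.05% to 18.8% of all genes were called higher. The medians ranged over 0.030 to 0.39 (8 d), 0.32 to 0.52 (11 d), 0.034 to 0.41 (14 d) and 0.013 to 0.40 (8 d to 11 d). Uncalled genes that changed sign were Rpl3l (-0.39 to 0.43 at 8 d, -0.046 to 0.55 at 14 d), Rpl22l1 (-0.13 to 0.34 at 14 d) and Rps4l (-0.33 to 0.11 at 11 d, -0.38 to 0.0020 at 14 d). The cause of the moves not explained by construction was not tested. With 3 libraries per group, 1 library can decide these counts.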

Other observations

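Cytosolic aminoacyl-tRNA synthetases, which charge tRNAs for the ribosome, were higher in 9, 9 and 3 of 20 genes at 8, 11 and 14 d, and lower in 0 at each time. These are 45%, 45% and 15% of the list, beside 13.0%, 19.4% and 20.0% of all genes called higher. Rars, for arginine, rose from 50.7 ± 2.12 to 85.9 ± 5.78 CPM at 11 d (SD, n = 3; log2 change 0.76, adjusted p = 0.00163 by edgeR), and Aars, for alanine, changed by 0.57 at 8 d and 0.57 at 11 d, both called, and stood at 0.27 at 14 d (adjusted p = 0.224).

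The list for growth control by mTOR and Myc, 20 genes, had 3, 3 and 4 higher (15%, 15% and 20%, near the shares of all genes) and 1, 3 and 1 lower. Genes named below were picked by low joint p, and none of the genes called lower is among them. Sesn2, a stress-induced inhibitor of mTORC1, rose from 9.17 ± 2.47 CPM in NoIR lung to 26.6 ± 4.35 at 8 d, 20.9 ± 3.39 at 11 d and 22.1 ± 3.54 at 14 d. Rragc, a GTPase that brings mTORC1 to the lysosome, stood at a log2 change of 0.02 at 8 d and rose by 0.46 at 11 d and 0.78 at 14 d. Mycn, a relative of Myc, rose at 8 d by 1.79 on the log2 scale (adjusted p = 0.00117), and stood at 0.57 and 0.35 at 11 d and 14 d, neither called.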
